A study of Mus musculus with 16 samples.

Results

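The genes described here are 6 members of the Reg family and Dmbt1, 7 of the 36528 genes with a value in each library. They were named by symbol (Reg1, Reg2, Reg3a, Reg3b, Reg3g, Reg4 and Dmbt1), and the set was chosen on expression values measured in these same libraries, so the members' levels and fold changes are given as a description, with no test of their own. Reg proteins are small secreted proteins with a C-type lectin fold. The intestinal epithelium releases Reg3b and Reg3g into the mucus, where they bind bacteria, and cytokines that act through STAT3, such as interleukin 22, are known to raise them. Reg1 was first described in regenerating pancreatic islets, and Reg4 marks the deep crypt secretory cells of the mouse colon and is also made by enteroendocrine and goblet cells. Dmbt1 is a large secreted glycoprotein with many scavenger receptor cysteine-rich domains that is also counted among the mucosal defence proteins.

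RNA sequencing was done on cells sorted by GFP from mouse intestinal tumours that the titles call AKVPSL derived or AKVPL derived. The titles do not say how the tumours were raised. There were 4 libraries each of AKVPSL GFP+, AKVPSL GFP-, AKVPL GFP+ and AKVPL GFP- cells. The design text describes the sorted cells as Lgr5-positive and Lgr5-negative, Lgr5 being the receptor that marks stem cells of the crypt base, and GFP is taken here as its reporter. No label says what the genotype letters stand for. In mouse models with such names A, P and S usually mean lost Apc, Trp53 and Smad4, and V a Villin-driven recombinase. No reading of K and L is given here. The letters other than S are common to all 4 groups. Age, sex and treatment are not given, nor is any gate other than GFP, so cells other than tumour cells may be present. Nothing in the labels ties replicates to separate mice, so part of the spread between libraries may be technical. Colon stands in all 16 titles and small intestine in the tissue field of 15; only AKVPSL GFP- replicate 1 has colon in both places.

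Total counts per library ran from 10.881 M to 41.602 M. Lgr5 ranged from 253 to 283.5 CPM (TMM-scaled counts per 1e6 counts of the library) in AKVPSL GFP+ libraries and from 48.33 to 89.72 CPM in AKVPSL GFP- libraries, and from 247.2 to 345.2 CPM in AKVPL GFP+ libraries and from 57.55 to 74.58 CPM in AKVPL GFP- libraries. Smad4 counts over the whole gene were not lower in AKVPSL. They averaged 247.4 ± 26.2 CPM in AKVPSL GFP+ and 152.6 ± 4.24 CPM in AKVPL GFP+ cells (SD, n = 4 each), with no overlap of libraries. In GFP- cells they averaged 179.5 ± 26.1 CPM in AKVPSL and 138.7 ± 14.2 CPM in AKVPL, with overlap. Single exons were not analysed here. The sum of 10 epithelial markers had means of 8901 CPM in AKVPSL GFP+, 10270 CPM in AKVPSL GFP-, 9993 CPM in AKVPL GFP+ and 8600 CPM in AKVPL GFP- cells.

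Of the 7 members, 5 lie in 97.99 kb of chromosome 6 (GRCm38) together with Reg3d, a sixth Reg gene that had 3 counts over all 16 libraries. Reg3b (Gene ID 18489, chr6:78370885-78373466), Reg3a (19694, chr6:78380709-78383839), Reg2 (19693, chr6:78405155-78408099) and Reg1 (19692, chr6:78425983-78428668) follow each other on the plus strand, and Reg3g (19695, chr6:78466269-78468874) closes the cluster on the minus strand. Reg4 (67709, chr3:98222138-98236748) and Dmbt1 (12945, chr7:131032057-131121628) are elsewhere, both on the plus strand. The 250 bases before the start of 4 members, as the promoter table sets it, are shown because the RNA levels of these genes followed 3 different patterns across the groups. The sequences are those of RefSeq for GRCm38.p6, read 5′ to 3′ on the strand of the gene, from chr6:78425733-78425982 (Reg1, plus), chr6:78370635-78370884 (Reg3b, plus), chr6:78468875-78469124 (Reg3g, minus) and chr3:98221906-98222155 (Reg4, plus). Capitals mark matches, on either strand, to TTCNNNGAA (the form bound by STAT factors), CTTTGAT (TCF factors), CAGAC (SMAD factors) or TTTATGG (CDX factors).
Reg1: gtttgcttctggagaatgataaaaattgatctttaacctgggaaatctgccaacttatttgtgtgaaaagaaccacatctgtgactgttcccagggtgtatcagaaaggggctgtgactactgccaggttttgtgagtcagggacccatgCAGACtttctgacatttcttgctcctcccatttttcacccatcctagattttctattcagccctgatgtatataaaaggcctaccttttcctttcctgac
Reg3b: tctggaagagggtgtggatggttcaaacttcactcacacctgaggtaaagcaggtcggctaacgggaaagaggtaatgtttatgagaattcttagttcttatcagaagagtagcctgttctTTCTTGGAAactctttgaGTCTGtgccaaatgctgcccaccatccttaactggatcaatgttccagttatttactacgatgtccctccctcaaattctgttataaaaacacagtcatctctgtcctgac
Reg3g: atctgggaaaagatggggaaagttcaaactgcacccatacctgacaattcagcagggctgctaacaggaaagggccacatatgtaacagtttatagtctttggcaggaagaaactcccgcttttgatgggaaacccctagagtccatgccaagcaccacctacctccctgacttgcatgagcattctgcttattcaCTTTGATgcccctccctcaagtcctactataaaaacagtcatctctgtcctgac
Reg4: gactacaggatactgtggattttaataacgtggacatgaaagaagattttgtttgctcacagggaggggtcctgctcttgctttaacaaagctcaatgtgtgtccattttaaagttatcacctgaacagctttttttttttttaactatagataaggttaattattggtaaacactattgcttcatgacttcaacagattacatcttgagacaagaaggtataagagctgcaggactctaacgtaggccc
Reg3b held the STAT form 129 bases before its start and the SMAD form, on the reverse strand, at 111 bases. Reg1 held the SMAD form at 100 bases, Reg3g the TCF form at 54 bases, and Reg4 none of the 4 forms. Of the members not shown, Reg2 held the TCF form at 72 bases, and Reg3a held the TCF form at 7 bases and the SMAD form at 35 bases; no match overlapped another. In all 32851 promoter windows of this length, 7.02% held the STAT form, 3.205% the TCF form, 42.19% the SMAD form and 2.426% the CDX form, so a match is a description of the letters and not of binding. The Reg3b and Reg3g windows both contain the run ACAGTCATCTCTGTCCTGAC, 20 bases long, at the end next to the start; the longest run shared by any other pair was 12 bases. A promoter entry was found for 6 of the 7 members, all but Dmbt1.

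The transcripts of the cluster are also related, which bears on how reads were assigned. Over the protein-coding transcripts of GENCODE, Reg3b and Reg3g shared an identical run of 35 bases, Reg3a shared 24 with each of them, and no other pair of members shared more than 19. Only reads aligned uniquely were counted, so a read that lay wholly within such a run is in neither count.

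The members followed 3 patterns. Reg1, Reg3b and Dmbt1 RNA was far higher in AKVPL than in AKVPSL cells, where it was at or near 0. Reg4 RNA was highest in AKVPSL GFP+ cells, and Reg3g RNA followed the GFP sort in both genotypes, with levels that overlapped between them.

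Reg3b, a lectin that binds bacteria in the gut lumen, was the most abundant member in AKVPL. It had 4, 4, 47 and 20 counts in AKVPSL GFP+ replicates 1 to 4 and 0, 1, 3 and 0 counts in AKVPSL GFP- replicates 1 to 4. In AKVPL it had 6950, 5454, 3499 and 2489 counts in GFP+ replicates 1 to 4 and 1621, 1179, 1062 and 304 counts in GFP- replicates 1 to 4. Every AKVPL library lay far above every AKVPSL library. Scaled for library size, Reg3b averaged 0.655 ± 0.692 CPM in AKVPSL GFP+, 0.0452 ± 0.0627 CPM in AKVPSL GFP-, 160.7 ± 29.9 CPM in AKVPL GFP+ and 44.4 ± 13.7 CPM in AKVPL GFP- cells (SD, n = 4 each). By summed counts over the 4 libraries of a group, scaled for their sizes, Reg3b was 275.8-fold lower in AKVPSL GFP+ than in AKVPL GFP+ cells (95% counting interval 219.9 to 350.7) and 1171-fold lower in AKVPSL GFP- than in AKVPL GFP- cells (456.9 to 4298). These intervals, here and below, cover counting error only. Of the 75 counts in AKVPSL GFP+ cells, 47 came from replicate 3, and the fitted log2 fold change in GFP+ cells was -8.01 with all libraries and -9.02 without that one. In GFP- cells it was -9.94 with all libraries and -11.29 without AKVPSL GFP- replicate 3, which held 3 of the 4 counts.

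Reg1, the founding member of the family, had 0, 2, 9 and 10 counts in AKVPSL GFP+ and 0, 0, 4 and 9 counts in AKVPSL GFP- replicates 1 to 4. It had 2234, 1842, 1165 and 1082 counts in AKVPL GFP+ and 522, 434, 464 and 126 counts in AKVPL GFP- replicates 1 to 4. Its order of groups was that of Reg3b in AKVPL, while the 2 AKVPSL groups overlapped. Those of Reg3b overlapped too, at 0.09905 to 1.566 CPM in AKVPSL GFP+ and 0 to 0.1329 CPM in AKVPSL GFP- libraries. In means that was 0.194 ± 0.193 CPM in AKVPSL GFP+, 0.135 ± 0.173 CPM in AKVPSL GFP-, 56.6 ± 8.01 CPM in AKVPL GFP+ and 16.9 ± 4.92 CPM in AKVPL GFP- cells. Reg1 was 338.6-fold lower in AKVPSL GFP+ than in AKVPL GFP+ cells by summed counts (221.3 to 547.3) and 133.7-fold lower in AKVPSL GFP- than in AKVPL GFP- cells (77.93 to 251.6).

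Dmbt1 was read once in AKVPSL GFP+ cells, in replicate 3, and had 0 counts in the other 3 AKVPSL GFP+ libraries and in all 4 AKVPSL GFP- libraries. In AKVPL it had 739, 770, 402 and 282 counts in GFP+ and 301, 211, 124 and 47 counts in GFP- replicates 1 to 4, which is 19.1 ± 4.09 CPM in AKVPL GFP+ and 7.10 ± 2.83 CPM in AKVPL GFP- cells (SD, n = 4 each). The AKVPSL libraries were thus near the limit of detection, and no AKVPL library was. Against the single count, Dmbt1 was 2466-fold lower in AKVPSL GFP+ than in AKVPL GFP+ cells, with an interval of 442.1 to 97440. It was at least 255.9-fold lower in AKVPSL GFP- than in AKVPL GFP- cells, against a floor of 3 counts over the AKVPSL GFP- group. This bound takes the AKVPL GFP- count as exact.

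Reg3a, a further lectin of the cluster, was rare. It had 0 counts in all 8 AKVPSL libraries, 10, 10, 6 and 0 counts in AKVPL GFP+ and 1, 0, 5 and 0 counts in AKVPL GFP- replicates 1 to 4. Against a floor of 3 counts over a group, that is at least 9.745-fold lower in AKVPSL GFP+ than in AKVPL GFP+ cells. In GFP- cells it is at least 2.248-fold lower in AKVPSL than in AKVPL. Both bounds take the AKVPL count as exact, with no counting error. The GFP- bound rests mostly on the 5 counts of AKVPL GFP- replicate 3. Reg2, a neighbour of Reg1 in the cluster, had 0 counts in all 16 libraries, which allows up to 0.007104 CPM over all libraries together and between 0.07429 and 0.254 CPM in a single library. Neither gene passed the filter on low counts, which leaves 5 of the 7 members among the 18072 genes tested.

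Reg4, the deep crypt secretory cell marker, ran the other way between the genotypes. It was at 82.36, 88.54, 79.78 and 109.6 CPM in AKVPSL GFP+ replicates 1 to 4 and at 10.48, 7.393, 10.41 and 11.85 CPM in AKVPSL GFP- replicates 1 to 4. In AKVPL it was at 4.224, 5.161, 5.388 and 2.825 CPM in GFP+ and at 3.718, 3.271, 3.092 and 3.556 CPM in GFP- replicates 1 to 4. Neither AKVPSL group overlapped another group, while the 2 AKVPL groups overlapped each other. The log2 fold change of AKVPSL over AKVPL was 4.34 ± 0.19 (SE) in GFP+ cells and 1.56 ± 0.18 in GFP- cells. That of GFP+ over GFP- was 3.16 ± 0.17 in AKVPSL and 0.38 ± 0.19 in AKVPL.

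Reg3g, the lectin that kills gram-positive bacteria and keeps them from the epithelial surface, was at 29.42, 29.02, 47.3 and 60.1 CPM in AKVPSL GFP+ and at 7.47, 10.78, 9.613 and 10.48 CPM in AKVPSL GFP- replicates 1 to 4. In AKVPL it was at 36, 37.05, 39.71 and 39.55 CPM in GFP+ and at 13.35, 12.53, 11.69 and 8.466 CPM in GFP- replicates 1 to 4. In each genotype all GFP+ libraries lay above all GFP- libraries, and within each sort the genotypes overlapped. Within AKVPSL GFP+ replicates 1 and 2 lay below all AKVPL GFP+ libraries and replicates 3 and 4 above them. The log2 fold change of AKVPSL over AKVPL was 0.12 ± 0.20 in GFP+ cells (-0.11 without AKVPSL GFP+ replicate 4) and -0.28 ± 0.21 in GFP- cells. With libraries scaled on 9 epithelial marker genes in place of all genes, the GFP- value was -0.52 and passed the threshold.

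**Figure D1:**
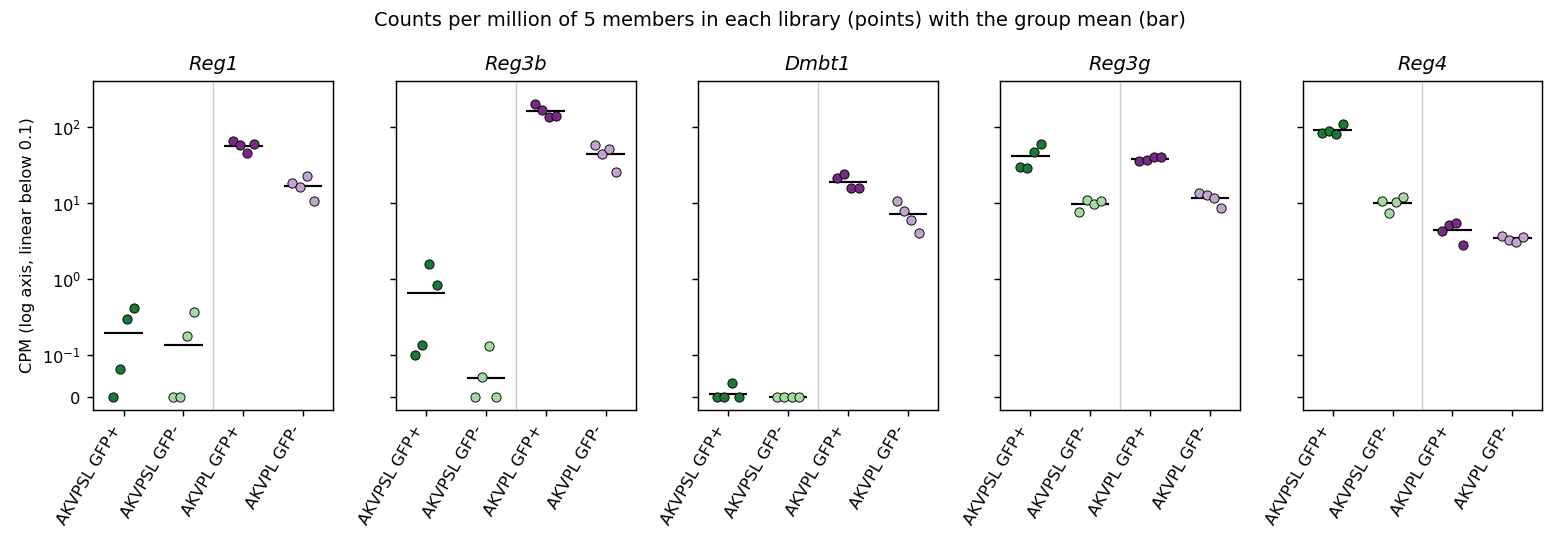
CPM values of the 5 members above the filter in each of the 16 libraries, on an axis that is logarithmic above 0.1 CPM and linear below it; points are libraries and bars group means (n = 4). Reg1, Reg3b and Dmbt1 are at or near 0 in the AKVPSL groups, Reg3g splits by GFP in both genotypes, and Reg4 is highest in AKVPSL GFP+ cells.

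Across many genes the comparisons were made with edgeR's quasi-likelihood test, and a gene is called here when its p-value, adjusted over all genes of a comparison, was under 0.05. Between the genotypes in GFP+ cells, 1 of the 5 tested members (Reg4) was called higher and 3 (Reg1, Reg3b and Dmbt1) were called lower in AKVPSL, where 24.9% of all genes tested were called higher and 28.1% lower. In GFP- cells the same 1 and 3 members were called, where 32% of genes were called higher and 30.7% lower in AKVPSL. Since the members were selected on values of these contrasts, nothing is read from these counts. In bulk RNA, fewer cells that make a transcript and less of it per cell cannot be told apart.

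Between the sorts, GFP+ cells had more RNA of each abundant Reg gene and of Dmbt1 in AKVPL except Reg4. The log2 fold change of GFP+ over GFP- in AKVPL was 1.74 ± 0.36 (SE) for Reg1, 1.85 ± 0.38 for Reg3b, 1.71 ± 0.21 for Reg3g and 1.41 ± 0.27 for Dmbt1, and for each of them the lowest GFP+ library exceeded the highest GFP- library. The differences between these 4 values were not tested. All 4 of these members were called higher and none lower in AKVPL GFP+ cells, where 22.6% of genes tested were called higher and 16.5% lower. The Reg1 call ended with the DESeq2 Wald test (log2 fold change 1.65), and Reg4 was called without AKVPL GFP+ replicate 4 (0.53). In AKVPSL, 3 members (Reg3b, Reg3g and Reg4) were called higher and none lower in GFP+ cells, where 22.4% of genes were called higher and 24.6% lower.

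Reg3g had a log2 fold change of 2.11 ± 0.21 in AKVPSL. The AKVPSL value of Reg3b, 3.78 ± 1.26, rests on few counts: of its 75 counts in GFP+ cells, 47 came from replicate 3 and 20 from replicate 4. Its call ended without AKVPSL GFP+ replicate 3 (2.77), AKVPSL GFP- replicate 1 (3.22) or AKVPSL GFP- replicate 4 (3.31), and on the log2 scale of RPKM plus 1 (0.65). Reg1 gave 0.37 ± 0.98 on 21 counts in GFP+ and 13 in GFP- cells (-0.237 to 1.503 without single libraries), and Dmbt1 gives no fold in AKVPSL, where both groups were at or under the floor. The difference between the sort effects, AKVPSL minus AKVPL, was 2.78 ± 0.25 log2 units for Reg4, the 1 member called in that comparison, as higher, where 7.02% of genes were called higher and 13.7% lower. It was 0.40 ± 0.29 for Reg3g, and 0.82 and called with scaling on epithelial markers.

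**Figure D2:**
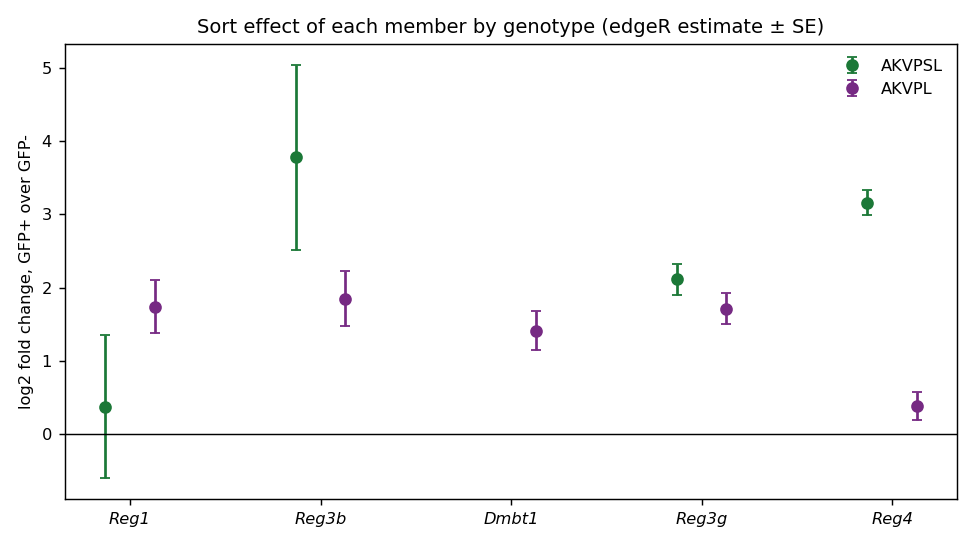
Log2 fold change of GFP+ over GFP- cells for each member, with AKVPSL in green and AKVPL in purple; points are edgeR estimates and bars their SE. Reg4 has 3.16 in AKVPSL and 0.38 in AKVPL, Reg3g has 2.11 and 1.71, and no value is drawn for Dmbt1 in AKVPSL, where 1 count was found in all.

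Levels of different genes were compared on the deposited RPKM scale, which divides by gene length. In AKVPSL GFP+ cells the order was Reg4 at 80.19 ± 12.04 RPKM and Reg3g at 48.7 ± 17.7 RPKM (SD, n = 4), then Reg3b at 0.786 ± 0.831 and Reg1 at 0.230 ± 0.229 RPKM, which overlapped. In AKVPSL GFP- cells Reg3g (11.3 ± 1.76 RPKM) and Reg4 (8.96 ± 1.66 RPKM) overlapped and all other members were under 0.43 RPKM in every library. In AKVPL GFP+ cells the order was Reg3b at 192.4 ± 33.9, Reg1 at 67.0 ± 8.92, Reg3g at 44.8 ± 2.56, Reg4 at 3.92 ± 1.05 and Dmbt1 at 2.56 ± 0.535 RPKM, and of these neighbours only Reg4 and Dmbt1 overlapped. In AKVPL GFP- cells it was Reg3b at 57.0 ± 17.6, Reg1 at 21.4 ± 6.23, Reg3g at 14.5 ± 2.67, Reg4 at 3.25 ± 0.270 and Dmbt1 at 1.02 ± 0.405 RPKM, and of these neighbours only Reg1 and Reg3g overlapped. Thus Reg4 led the set in AKVPSL GFP+ cells and Reg3b in both AKVPL groups.

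Summed over the 7 genes, the level was 129.9 ± 28.0 RPKM in AKVPSL GFP+, 20.5 ± 2.21 in AKVPSL GFP-, 310.9 ± 38.1 in AKVPL GFP+ and 97.3 ± 25.9 RPKM in AKVPL GFP- cells. Reg4 made up 62.6 ± 7.29% of this sum in AKVPSL GFP+ and 43.8 ± 7.22% in AKVPSL GFP- cells, and Reg3g nearly all of the rest. Reg3b made up 61.6 ± 3.48% in AKVPL GFP+ and 58.1 ± 3.23% in AKVPL GFP- cells, and Reg1 made up 21.6 ± 2.13% in AKVPL GFP+ and 22.0 ± 2.31% in AKVPL GFP- cells. The shares of Reg3b and Reg1 in AKVPL thus overlapped between the sorts. That of Reg4 did not, at 0.876% to 1.77% in AKVPL GFP+ and 2.61% to 5.55% in AKVPL GFP- libraries. The ratio of Reg3b to Reg1, in RPKM, lay between 2.33 and 3.15 in AKVPL GFP+ and between 2.32 and 3.15 in AKVPL GFP- libraries. The ratio of Reg3b to Reg3g, the outermost genes of the cluster, lay between 0.00343 and 0.0338 in AKVPSL GFP+ and between 0 and 0.0141 in AKVPSL GFP- libraries, against 3.51 to 5.66 in AKVPL GFP+ and 3.10 to 4.47 in AKVPL GFP- libraries.

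**Figure D3:**
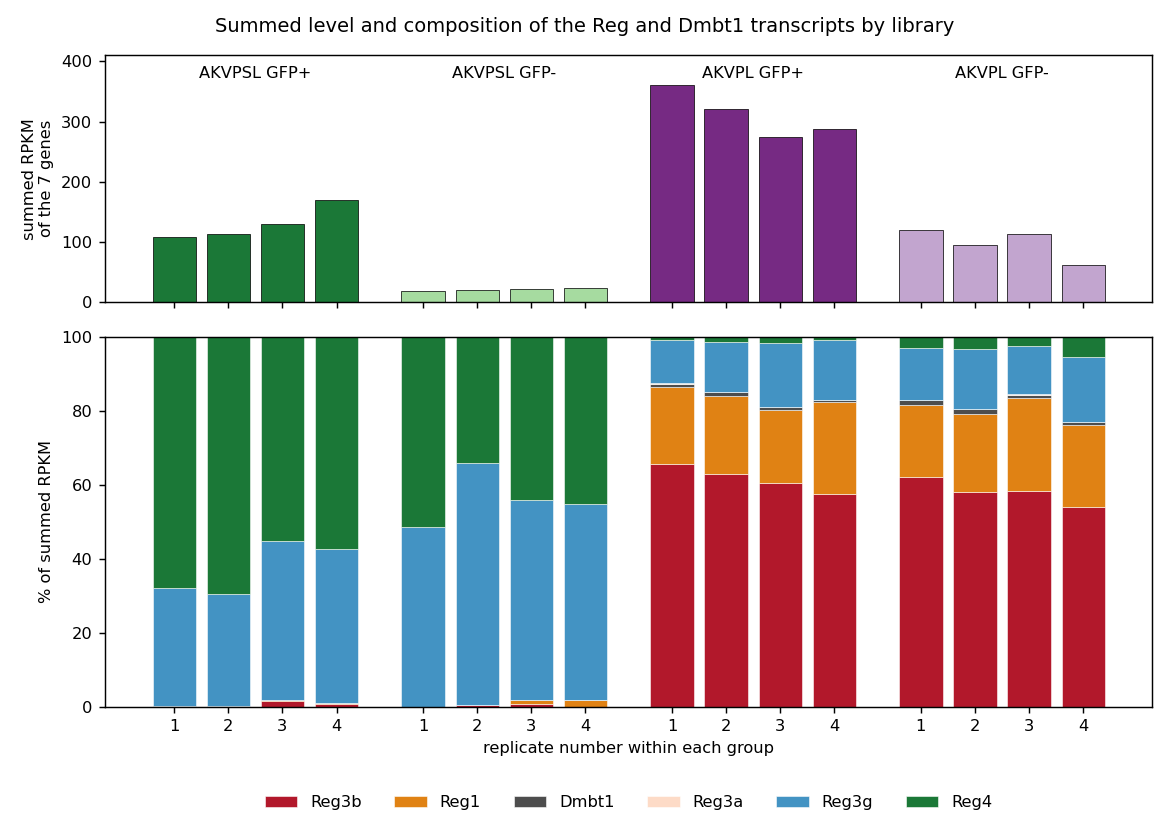
Upper panel, summed RPKM of the 7 genes in each library; lower panel, the percent of that sum from each gene, with replicate numbers on the x axis. Reg4 and Reg3g fill the AKVPSL bars, and Reg3b makes up 57.53% to 65.66% of the AKVPL GFP+ bars and 54.01% to 61.91% of the AKVPL GFP- bars.

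**Figure D4:**
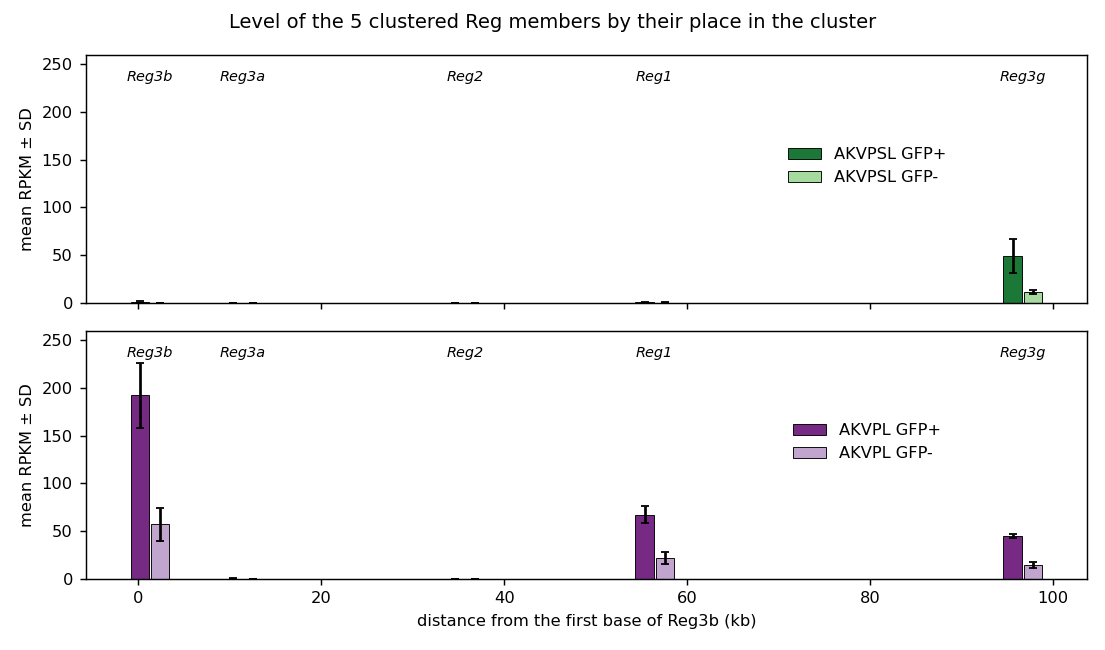
Mean RPKM with SD (n = 4) of the 5 members in the chromosome 6 cluster, placed by distance in kb from the first base of Reg3b, with AKVPSL in the upper and AKVPL in the lower panel. Reg3g, at the far end, is at a like level in both genotypes, while Reg3b and Reg1 are near 0 in AKVPSL; Reg3a and Reg2 are near or at 0 throughout.

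The genes whose levels were most like each member over the 16 libraries were found by Pearson's r of log2(CPM + 0.5), as a description: the 16 points form 4 groups of 4 and share their libraries. For Reg1 the nearest were Cyp21a1, a steroid hydroxylase (r = 0.996, n = 16 libraries), Otop3, of the otopetrin proton channels (0.992), and Cyp11a1, which makes pregnenolone from cholesterol (0.992), then Tfr2 and Wdr72 (0.990 each). For Reg3b they were Tfr2, a transferrin receptor (0.995), Adcy8, an adenylyl cyclase (0.994), Cyp21a1 (0.993), Cyp11a1 and Irf9, part of the complex that carries interferon signals to DNA (0.992 each). Cyp21a1 was at 0.155 CPM in AKVPSL GFP+, 0.172 in AKVPSL GFP-, 47.4 in AKVPL GFP+ and 17.3 CPM in AKVPL GFP- cells. For Dmbt1 they were Lrrc2 (0.995), Cyp21a1 and Chrna1os (0.994 each), Ina, a neuronal intermediate filament protein (0.992), and Abcc12 (0.989); Chrna1os is an antisense RNA, and strand in the counting is not given. Among the members, r was 0.993 for Reg1 with Reg3b, 0.992 for Reg1 with Dmbt1 and 0.988 for Reg3b with Dmbt1.

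For Reg4 the gene nearest in pattern was Atoh1, the transcription factor that sets the secretory lineage (r = 0.986), at 1.44 CPM in AKVPSL GFP+, 0.273 in AKVPSL GFP-, 0.0273 in AKVPL GFP+ and 0 CPM in AKVPL GFP- cells. BC048644 (0.984), Tff3, a trefoil peptide of goblet cells (0.982), Slc16a10, an amino acid transporter (0.980), and Trf, transferrin (0.974), followed. For Reg3g they were Limk2, a LIM kinase (0.971), Pgap6 (0.960), Gkn3, a gastrokine (0.947), Usp20, a deubiquitinating enzyme (0.943), and Sgpp2, a sphingosine phosphate phosphatase (0.942). Gkn3 was at 451.6 CPM in AKVPSL GFP+, 172.4 in AKVPSL GFP-, 487.1 in AKVPL GFP+ and 267.8 CPM in AKVPL GFP- cells.

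Cytokines known to raise Reg genes ranged from undetected to abundant. Il22 and Il17a had 0 counts in all 16 libraries, which allows up to 0.007104 CPM each over all libraries together. Il22ra1, the receptor chain through which interleukin 22 acts on epithelium, averaged 7.70 ± 2.12 CPM in AKVPSL GFP+, 6.47 ± 0.849 in AKVPSL GFP-, 8.20 ± 2.13 in AKVPL GFP+ and 6.44 ± 2.12 CPM in AKVPL GFP- cells and was called in no comparison between genotypes or sorts. Of 7 tested ligands of a list of 10, 2 were called higher and 3 lower in AKVPSL against AKVPL, in GFP+ and in GFP- cells alike. For this list and those below, 24.9% of all genes tested were called higher and 28.1% lower in AKVPSL GFP+ cells. In AKVPSL GFP- cells the shares were 32% and 30.7%. For the sort they were 22.4% and 24.6% in AKVPSL, and 22.6% and 16.5% in AKVPL. Il1b averaged 14.9 ± 10.4 CPM in AKVPSL GFP+, 93.9 ± 52.6 in AKVPSL GFP-, 67.1 ± 29.9 in AKVPL GFP+ and 328.2 ± 69.1 CPM in AKVPL GFP- cells, and Osm, oncostatin M, 3.88 ± 3.12 in AKVPSL GFP+, 39.7 ± 31.9 in AKVPSL GFP-, 11.1 ± 4.47 in AKVPL GFP+ and 80.3 ± 16.7 CPM in AKVPL GFP- cells. Both were highest in AKVPL GFP- cells, and Reg1, Reg3b and Dmbt1 in AKVPL GFP+ cells. A link between these ligands and the members was not tested. Lif was the most abundant of those called higher in GFP+ cells, at 104.2 ± 16.4 CPM in AKVPSL against 38.4 ± 13.6 CPM in AKVPL (log2 fold change 1.44 ± 0.27). Il18 fell by 2.75 ± 0.19 log2 units and Il11 fell by 2.60 ± 0.41 log2 units in AKVPSL GFP+ cells. The median over the 7 ligands in GFP+ cells was -1.55, beside -0.05 over all genes tested.

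Receptors and signal carriers of the JAK-STAT3 pathway were lower in AKVPSL in part. Of 13 tested, 2 were called higher and 6 lower in GFP+ cells (median -0.28), and 1 higher and 8 lower in GFP- cells (median -0.53, beside 0.00 over all genes). Osmr, the oncostatin M receptor, was at 1.21 ± 0.822 CPM in AKVPSL GFP+ and 27.3 ± 3.33 CPM in AKVPL GFP+ cells, a log2 fold change of -4.56 ± 0.34. Stat3 was at 193.1 ± 17.5 CPM in AKVPSL GFP+ and 318.7 ± 51.9 CPM in AKVPL GFP+ cells (-0.72 ± 0.11), and Lifr, the receptor of Lif, at 14.3 ± 4.29 CPM in AKVPSL GFP+ and 35.8 ± 3.17 CPM in AKVPL GFP+ cells (-1.32 ± 0.18). Tyk2 fell too, by 0.69 ± 0.08, while Il10rb, which pairs with the interleukin 22 receptor chain, rose by 0.52 ± 0.10 and Il17ra, an interleukin 17 receptor chain, by 0.48 ± 0.10. With scaling on epithelial markers the counts in GFP+ cells were 4 higher and 4 lower, with Osmr, Stat3, Lifr and Tyk2 called lower there as well.

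STAT3 target genes other than the members were lower in AKVPSL in most cases. Of 12 tested, 3 were called higher and 7 lower in GFP+ cells (median -1.04), beside 24.9% higher and 28.1% lower of all genes tested. In GFP- cells 2 were called higher and 8 lower (median -0.94), beside 32% and 30.7% of all genes. Socs3, the feedback inhibitor of the pathway, was at 85.1 ± 20.6 CPM in AKVPSL GFP+ and 269.2 ± 24.8 CPM in AKVPL GFP+ cells (-1.66 ± 0.16). Lcn2, a lipocalin that withholds iron from bacteria, was at 47.9 ± 16.7 CPM in AKVPSL GFP+ and 197.5 ± 40.1 CPM in AKVPL GFP+ cells (-2.04 ± 0.24), and Lrg1 fell by 1.86 ± 0.23. The members of the list that rose were Fut2, a fucosyltransferase of the epithelial surface (0.95 ± 0.13), and Duox2 and Duoxa2, an oxidase and its maturation factor (2.06 ± 0.37 and 2.05 ± 0.34). In the sort, in AKVPL GFP+ cells 2 were called higher and 4 lower than in GFP- cells.

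Goblet and deep crypt secretory genes were mostly higher where Reg4 was. Of 12 tested, 8 were called higher and 2 lower in AKVPSL GFP+ than in AKVPL GFP+ cells (median 1.40) and 7 higher and 2 lower in GFP- cells (median 1.11). Tff3 was at 16.4 ± 4.74 CPM in AKVPSL GFP+ and 0.625 ± 0.220 CPM in AKVPL GFP+ cells (4.69 ± 0.30), and Spink4, a secreted inhibitor made by goblet cells, at 146.0 ± 30.0 CPM in AKVPSL GFP+ and 10.1 ± 1.11 CPM in AKVPL GFP+ cells (3.85 ± 0.27). The 2 members that moved against the list were Kit, the receptor that marks deep crypt secretory cells with Reg4 in the mouse colon, and Fcgbp, a mucus protein. Kit was at 3.21 ± 0.325 CPM in AKVPSL GFP+ and 66.9 ± 4.88 CPM in AKVPL GFP+ cells (-4.39 ± 0.11), and Fcgbp fell by 3.94 ± 0.31. In AKVPSL, 8 of the 12 were called higher and 1 (Kit) lower in GFP+ than in GFP- cells, with Tff3 at 2.58 ± 0.26 and Spink4 at 1.97 ± 0.24; in AKVPL 4 were called higher and 1 (Kit) lower. Of 4 tested enteroendocrine genes, a cell type that also makes Reg4, none was called higher and 2 (Chga and Tph1) were called lower in AKVPSL than in AKVPL GFP+ cells; the Chga call ended with limma on log2(RPKM + 1), at -0.54.

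Other defence genes, not all of them secreted, were split, and Nos2 and Lcn2 are also in the list of STAT3 targets above. Of 17 tested, 6 were called higher and 3 lower in AKVPSL GFP+ than in AKVPL GFP+ cells (median -0.09). In GFP- cells 5 were called higher and 8 lower in AKVPSL (median -0.67, beside 0.00 over all genes). Wfdc2, a secreted protein of the whey acidic protein family, was at 303.9 ± 13.1 CPM in AKVPSL GFP+ and 2.90 ± 2.06 CPM in AKVPL GFP+ cells (6.79 ± 0.57), and Pglyrp1, which binds peptidoglycan, at 804.3 ± 50.1 CPM in AKVPSL GFP+ and 353.2 ± 28.4 CPM in AKVPL GFP+ cells (1.19 ± 0.13). Lypd8, which keeps flagellated bacteria from the colon epithelium, was lower, at 0.529 ± 0.113 CPM in AKVPSL GFP+ and 10.97 ± 4.22 CPM in AKVPL GFP+ cells (-4.34 ± 0.31). In the sort in AKVPL, 6 of the 17 were called higher and 4 lower in GFP+ cells. In the sort in AKVPSL, 7 were called higher and 5 lower. Among those higher were Mmp7 and Lyz1, which Paneth cells make, Itln1, a lectin, and Pigr, which carries antibody to the lumen, with log2 fold changes from 1.45 ± 0.26 (Itln1) to 3.91 ± 0.55 (Lyz1). Those lower were S100a8 (-2.49 ± 0.54), S100a9 (-2.02 ± 0.75), Nos2 (-2.07 ± 0.49), Slpi (-2.37 ± 0.81) and Pglyrp1 (-0.37 ± 0.13). Among 14 other genes with scavenger receptor cysteine-rich domains, the family of Dmbt1, 2 were called higher and 5 lower in AKVPSL GFP+ than in AKVPL GFP+ cells, beside 24.9% higher and 28.1% lower of all genes tested. Lgals3bp, a secreted one, was at 67.4 ± 15.2 CPM in AKVPSL GFP+ and 708.7 ± 86.0 CPM in AKVPL GFP+ cells (-3.40 ± 0.20). Extl3, proposed as a receptor of Reg proteins, averaged 66.7 ± 7.76 CPM in AKVPSL GFP+, 56.9 ± 11.04 in AKVPSL GFP-, 76.3 ± 11.14 in AKVPL GFP+ and 94.9 ± 10.04 CPM in AKVPL GFP- cells, and was called between the genotypes in GFP- cells (-0.74 ± 0.14).

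Markers of other cell types moved with the genotype and the sort as well. Summed CPM of 10 leukocyte markers, none at 0, ranged from 43.88 to 235.8 in AKVPSL GFP+, 630.3 to 2755 in AKVPSL GFP-, 374.9 to 1012 in AKVPL GFP+ and 3595 to 6634 in AKVPL GFP- libraries. Of 8 fibroblast markers, none at 0, the sum ranged from 2646 to 4595 in AKVPSL GFP+, 2637 to 4976 in AKVPSL GFP-, 7057 to 8675 in AKVPL GFP+ and 11280 to 14840 CPM in AKVPL GFP- libraries. Both sums were lower in AKVPSL, and highest in AKVPL GFP- cells, where Reg1, Reg3b and Dmbt1 were lower than in AKVPL GFP+ cells. The fibroblast sum was mostly Fn1, fibronectin. Fn1 was at 3077 CPM in AKVPSL GFP+, 1947 in AKVPSL GFP-, 6961 in AKVPL GFP+ and 7775 CPM in AKVPL GFP- cells. Across the AKVPSL sort the fibroblast sums overlapped, while 7 of the 8 markers were called lower in GFP+ cells. Only Fn1 was called higher there, beside 22.4% of all genes called higher and 24.6% lower. In the AKVPL sort none was called higher and 6 were called lower, beside 22.6% and 16.5%. Between the genotypes in GFP+ cells, none of the 8 fibroblast markers was called higher and 2 were called lower in AKVPSL. That was near the 28.1% of all genes called lower there, and the libraries of Col1a1, Col1a2, Col3a1, Dcn, Lum and Pdgfrb overlapped. In GFP- cells none was called higher and 7 were called lower in AKVPSL, where 30.7% of all genes were called lower. Of the 10 leukocyte markers, none was called higher in AKVPSL, and 8 were called lower in GFP+ and 7 in GFP- cells. Reg1 is also a product of pancreatic acinar cells. Of 12 acinar markers, Cela3b, Amy2a5 and Ptf1a had 0 counts in all 16 libraries and Cpb1 had 1 count in all. The sum of the 12 ranged from 16.33 to 19.47 CPM in AKVPSL GFP+, 10.26 to 16.13 in AKVPSL GFP-, 55.48 to 74.73 in AKVPL GFP+ and 41.71 to 46.24 CPM in AKVPL GFP- libraries. Most of it was Cela1, an elastase, at 15.8 CPM in AKVPSL GFP+, 10.4 in AKVPSL GFP-, 63.4 in AKVPL GFP+ and 43.0 CPM in AKVPL GFP- cells. Prss2, a trypsinogen, ran the other way between the genotypes, at 0.906 CPM in AKVPSL GFP+ and 0.0175 CPM in AKVPL GFP+ cells (log2 fold change 5.29 ± 0.72). That fold rests on 105 counts over the AKVPSL GFP+ and 2 counts over the AKVPL GFP+ libraries, so it is approximate. The part of leukocyte and fibroblast RNA in the members' values was not tested.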

How the data were processed

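RNA came from flow-sorted cells, per the labels' protocols. GSNAP and GRCm38 are named, with no version, in the submitters' processing notes. A gene's deposited count covers its uniquely aligned reads, per the file headers, which do not give the strand setting. The deposited RPKM values carry the authors' own size-factor adjustment, as their headers state. Each file holds 36528 NCBI Gene IDs, of which 31049 (85.0%) matched a symbol in RefSeq's table for GRCm38.p6.

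For the tests on counts, edgeR 4.0.16 was run under R 4.3.3: filterByExpr kept 18072 genes, TMM gave factors of 0.936 to 1.086, and 1 mean per group was fitted to 16 libraries with the robust quasi-likelihood option, leaving 12 residual degrees of freedom. The 5 contrasts were the sort within each genotype, the genotype within each sort and the difference of the sort effects. Tests were two-sided, with Benjamini-Hochberg adjustment over all genes and a threshold of 0.05. The SE was taken as log2 fold change divided by the root of F, and is approximate near 0 counts. CPM values are TMM-scaled. Folds from groups near 0 counts use summed counts with 95% exact intervals, or a floor of 3 counts over the group. With the floor, the count of the other group is taken as exact. Chi-square per degree of freedom was 9.05 to 73.6 in the 24 replicate pairs, above sampling noise, and all 16 libraries were kept as separate replicates. The script was tested on simulated data.

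The members and the gene lists were chosen with earlier results of these data known. The rule for named genes took all members, for each member with a mean of at least 1 CPM the 5 most alike genes (predicted genes left out), and from each list up to 4 called genes with the smallest adjusted p and those called against the majority; a subset of the list genes, picked after their values were seen, is printed. Atoh1, Cela3b, Amy2a5, Ptf1a, Cpb1, Lgr5, Smad4, Il22, Il17a, Il22ra1, Il1b, Osm, Fn1, Col1a1, Col1a2, Col3a1, Dcn, Lum, Pdgfrb, Prss2 and Reg3d were chosen after their values were seen and are named as background to the members. Replicate numbers were checked as pairs by the correlation of deviations from the group means. In AKVPL each GFP+ library correlated more with the same-numbered GFP- library (0.153 to 0.337) than with any other. In AKVPSL (0.066 to 0.465) this held for replicates 1 and 2. It did not hold for replicate 3 (0.066 against 0.478 with another number) or 4 (0.302 against 0.394). Between genotypes (-0.091 to 0.311) it held for some numbers only. The main fit did not pair libraries. The alternatives were other scalings (median ratio, library totals, 9 epithelial markers), DESeq2 1.42.0, limma 3.58.1 on log2(RPKM + 1) and log2(RPKM + 0.1), no low-count filter, the replicate number as a block, and leaving out each library.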

Additional observations from a re-analysis of the deposited data

Results flagged for a closer look

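The sort effect of Reg4 differed between the genotypes by 2.779 log2 units (AKVPSL minus AKVPL), by the test of the difference itself in edgeR; as Reg4 was chosen with this result known, the value is a description. Of 21 groups of 4 libraries examined, a single library stood far from the other 3 in 2 groups, both at counts near 0. Chance gives about 1 in 20 groups for continuous values; at such counts that rate does not hold, and 1 count beside 3 libraries at 0 always stands apart. Reg3a was at 0.2416 CPM in AKVPL GFP- replicate 3, from 5 counts, with 1 count in the other 3 libraries together. Dmbt1 was at 0.03331 CPM in AKVPSL GFP+ replicate 3, from 1 count, with 0 counts in the other 3.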

How the results depend on the processing

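Log2 fold changes of the tested members and of the list genes examined were followed over the 5 comparisons. Under another setting 852 cases kept their direction and their side of the threshold, 5 reversed, 3 passed it and 4 missed it. Without a library 899 kept both, 9 reversed, 1 passed the threshold and 3 missed it. The list genes were picked mostly as called genes with the smallest adjusted p, so their stability was largely set in advance. The reversals under another setting were in the difference of the sort effects: with limma on log2(RPKM + 1), Reg3b was at -1.131 and Dmbt1 at -0.826, and with limma on log2(RPKM + 0.1) Dmbt1 was at -1.285, with DESeq2 at -0.924 and with the replicate block at -0.078, in place of 0.02; the cause was not tested. The count of members called in that difference was 1, but 2 with scaling on epithelial markers and 4 with limma on log2(RPKM + 1), where Reg1 (-1.556) also passed. Without single libraries, members called ranged from 4 to 4 between genotypes in each sort, from 4 to 5 for the sort in AKVPL, from 2 to 3 for the sort in AKVPSL and from 1 to 1 for the difference. Without single libraries the sign changed in values that passed no threshold: Reg1 for the sort in AKVPSL (-0.237 to 1.503), Reg3g between genotypes in GFP+ cells (-0.108 to 0.277) and Dmbt1 in the difference (-1.414 to 0.426). The replicate block changed no member's call; with it, Reg4 had 2.789 in the difference of sort effects. The share of calls that were higher depended on scaling: for the sort in AKVPL it was 57.84% with TMM, 42.09% with median ratios, 44.92% with library totals and 22.61% with epithelial markers. With epithelial markers it was also 67.69% in place of 47.72% for the sort in AKVPSL, 60.41% in place of 46.97% between genotypes in GFP+ cells, 34.22% in place of 51.08% in GFP- cells and 89.09% in place of 33.82% for the difference, which gave 49.21% with median ratios and 44.25% with library totals. The median of all genes moved at most from -0.10 to 0.32, in the difference with epithelial markers. Members near 0 counts (Reg3a, and Reg1, Reg3b and Dmbt1 in AKVPSL) are limited by depth.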
